A study of Mus musculus with 2 samples.

Results

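The mitochondrial ribosome is built from RNAs of the mitochondrial genome and from proteins that are all encoded in the nucleus, made in the cytosol and imported. Its genes carry the symbols Mrpl, for the large subunit, which joins amino acids, and Mrps, for the small subunit, which reads the mRNA. Members were chosen by symbol, as every gene named Mrpl or Mrps followed by a digit, whatever its signal. Of 84 such symbols in the RefSeq annotation, 78 had at least 1 probe on the array, out of 20642 named genes with a probe in all. The 6 without a probe were the pseudogenes Mrpl23-ps1, Mrpl27-ps, Mrpl48-ps, Mrps36-ps1, Mrps36-ps2 and Mrps36-ps3. Of the 78, 67 were well above background on at least 1 array and count as measured here, 40 of 49 of the large and 27 of 29 of the small subunit, among 15836 measured genes in all.

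The samples were macrophages of the splenic red pulp of mice, which engulf aged red blood cells. One group came from wild-type (WT) mice and the other from mice labelled as SIRPα-KO, which lack an inhibitory receptor of myeloid cells. Cells with F4/80 and little CD11b were sorted by flow cytometry, those of 5 mice were pooled per genotype, globin transcripts were removed from the RNA, and each pool was hybridised to 1 Cy3 array. The labels give no age, sex or strain of the mice, and they describe the red cell lysis, sort and globin removal in the same way for both groups. With 1 array per genotype there was no replicate and no test across samples could be run, so the precision of each value is limited by the number of arrays. Sirpa itself read 795 on WT and 1006 on its counterpart, 1.42-fold higher after scaling, which does not bear out the label, and no source used here places its probe relative to the deletion. The second array is therefore called the KO-labelled array, and all differences are that array minus WT.

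The mitochondrial ribosome makes only the few proteins that the mitochondrial genome encodes, all of them core subunits of the respiratory chain and of ATP synthase. Some of its own proteins have bacterial counterparts and others are found only in mitochondria. These products are assembled with respiratory chain proteins that the nucleus encodes, and both sets of nuclear genes often carry promoter sites of the nuclear respiratory factors NRF-1 and GABP. The macrophage markers Adgre1 (F4/80; 6830 and 10406) and Csf1r (6601 and 6697) were bright on both arrays, and 11 of 12 red pulp macrophage markers had a probe, of which 11 were above background on the WT and 10 on the KO-labelled array. Markers of other cells were present too: all 6 T cell markers (summed signal 36293 on WT and 16462 on the KO-labelled array) and all 6 B cell markers (2361 and 1011) were above background on both, as were 5 of 5 plasma cell markers on WT and 4 on the other (2704 and 1625). Summed signals were 902 and 670 for erythroid markers, 108 and 45.9 for neutrophil and monocyte markers, and 14488 and 18146 for the red pulp macrophage markers. Single bright probes carry much of these sums: Cd8b1 (27895 and 10283) in the T cell list, Cr2 (1547 and 327) in the B cell list and Adgre1 in the red pulp macrophage list. Slc4a1 (789 and 591) does so in the erythroid list and S100a8 (86.2 and 32.7) in the neutrophil and monocyte list. The plasma cell sum rests mostly on Jchain (1343 and 174) and Xbp1 (1277 and 1408), which went opposite ways. After scaling, the median differences were -0.09 for T cell markers (2 of 6 above 0), -0.16 for B cell markers (2 of 6), -0.15 for red pulp macrophage markers (5 of 11), -0.73 for plasma cell markers (2 of 5), -0.27 for erythroid markers (0 of 4 measured) and -0.07 for neutrophil and monocyte markers (0 of 3 measured). Sdc1 (16.9 and 6.21), S100a9 (10.8 and 4.10), Retnlg and C1qa were dim on the KO-labelled array. Their values are upper bounds that cannot lie above 0. The plasma cell median is the bound of Sdc1, and the neutrophil and monocyte median is that of S100a9. The part of other cells in the values of the mitochondrial ribosomal genes was not tested, and in RNA from a pool of cells a change in the mix of cells and a change in RNA per cell cannot be told apart.

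To show where these genes are read from, the 250 bases before the annotated start of the RefSeq promoter table (GRCm38.p6) were searched on both strands for 3 short motifs. The NRF-1 motif was taken as GCGCATGCG, the GABP motif as CCGGAAG and the YY1 motif as AAGATGGCG, none of which contains another; a palindromic NRF-1 match is found on both strands. Of the 78 members with a probe, 69 had a promoter entry. The NRF-1 letters stood in 7 of these (10.1%), against 1.64% of all 27025 genes in the table, the GABP letters in 18 (26.1%, against 7.83%) and the YY1 letters in 2 (2.90%, against 0.711%). Either of the first 2 motifs was present in 23 members (33.3%, against 9.21%). In 70 nuclear genes of the respiratory chain the shares were 8.57% for NRF-1, 17.1% for GABP, 1.43% for YY1 and 22.9% for either of the first 2. In 66 genes of cytosolic ribosomal proteins they were 0%, 25.8%, 3.03% and 25.8%. Shares above that of all genes were thus not particular to the members. The 7 members with the NRF-1 letters are shown with up to 20 bases on each side, read 5′ to 3′ along the gene, with the match in capitals, because NRF-1 is the factor best known for this class of genes.
Mrpl10 (chr11:97041427-97041475, plus strand): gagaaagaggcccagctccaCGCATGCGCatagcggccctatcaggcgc
Mrpl17 (chr7:105811088-105811118, minus strand): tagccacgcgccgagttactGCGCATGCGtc
Mrpl22 (chr11:58171611-58171659, plus strand): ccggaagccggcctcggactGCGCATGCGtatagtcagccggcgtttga
Mrpl32 (chr13:14613038-14613080, minus strand): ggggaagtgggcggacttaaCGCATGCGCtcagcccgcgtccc
Mrpl39 (chr16:84735340-84735388, minus strand): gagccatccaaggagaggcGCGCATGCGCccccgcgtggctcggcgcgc
Mrpl9 (chr3:94443289-94443335, plus strand): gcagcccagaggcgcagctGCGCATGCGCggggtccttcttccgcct
Mrps18b (chr17:35916636-35916684, minus strand): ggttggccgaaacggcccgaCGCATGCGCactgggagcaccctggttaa
Seen side by side, the 7 windows hold the same core in either orientation. Mrpl39 and Mrpl9, both of the large subunit, each carry the palindrome, Mrpl32 has 3 matches of which the nearest to its start is shown, and in Mrpl22 the GABP letters stand in lower case at the start of the window, within 20 bases of the NRF-1 match.

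The 250-base stretches of 4 further members are shown because they had the highest and lowest differences between the arrays among those above background on both: Mrpl35 at the bottom, Mrps12 at the top, and Mrpl18 and Mrpl27 as the next highest. Capitals mark the GABP letters, and no other searched motif is present.
Mrpl35 (chr6:71823785-71824034, minus strand): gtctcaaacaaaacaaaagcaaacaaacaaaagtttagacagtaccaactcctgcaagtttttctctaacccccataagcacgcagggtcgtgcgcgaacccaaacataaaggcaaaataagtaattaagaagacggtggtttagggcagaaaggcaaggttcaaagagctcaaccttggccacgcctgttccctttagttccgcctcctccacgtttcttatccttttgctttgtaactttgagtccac
Mrps12 (chr7:28741822-28742071, minus strand): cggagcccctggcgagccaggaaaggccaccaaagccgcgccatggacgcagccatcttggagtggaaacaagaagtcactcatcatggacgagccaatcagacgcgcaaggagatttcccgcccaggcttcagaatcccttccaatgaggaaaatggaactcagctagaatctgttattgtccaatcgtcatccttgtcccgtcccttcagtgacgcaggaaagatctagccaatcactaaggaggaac
Mrpl18 (chr17:12916092-12916341, minus strand): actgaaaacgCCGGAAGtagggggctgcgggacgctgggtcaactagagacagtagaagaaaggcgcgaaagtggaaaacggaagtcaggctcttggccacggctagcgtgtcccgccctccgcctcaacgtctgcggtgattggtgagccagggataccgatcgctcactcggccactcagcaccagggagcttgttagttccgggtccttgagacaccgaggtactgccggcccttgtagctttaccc
Mrpl27 (chr11:94653541-94653790, plus strand): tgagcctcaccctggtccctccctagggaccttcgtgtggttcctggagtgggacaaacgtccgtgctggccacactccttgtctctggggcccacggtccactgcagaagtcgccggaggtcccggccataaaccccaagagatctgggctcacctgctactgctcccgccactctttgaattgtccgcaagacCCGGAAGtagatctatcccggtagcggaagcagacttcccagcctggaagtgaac
Between the GABP letters and the start lie 233 bases in Mrpl18 and 48 in Mrpl27. Neither Mrpl35, with 44.4% G and C in this stretch, nor Mrps12, with 53.6%, holds any of the 3 motifs here, which says only that these letters are not in this window. Mrpl46 and Mrps11, one gene of each subunit, lie head to head, and only 41 bases separate their annotated starts at chr7:78783090-78783130, shown on the plus strand.
Mrpl46 and Mrps11: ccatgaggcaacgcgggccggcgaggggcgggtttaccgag
That pair did not read alike on the arrays: Mrps11 had 55.8 on WT and 81.2 on the KO-labelled array, and Mrpl46 had 12.2 on WT and was not well above background on the other, at 2.91.

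The members spanned a wide range of signal. Signals of different probes depend on the probe as well as on the transcript and are not compared as levels between genes. On the WT array the median measured member stood at 103, with a range from 9.89 to 9338. By the mean of both arrays, the probes with the highest signal in the large subunit were those of Mrpl33 (9338 on WT and 5888 on the KO-labelled array), Mrpl52 (2619 and 2893) and Mrpl2 (1071 and 1046). In the small subunit they were those of Mrps10 (4499 and 2837), Mrps23 (364 and 415) and Mrps25 (258 and 333). After scaling, Mrpl33 and Mrps10, whose proteins have bacterial counterparts, were lower on the KO-labelled array by over 2 spot errors (not so under quantile normalization, cyclic loess or the authors' values), Mrps25 was higher by over 2, and Mrpl52 (0.31), Mrpl2 (0.13) and Mrps23 (0.36) lay within 2. In those same settings Mrpl52 (0.62, 0.53 and 0.59) and Mrps23 (0.53, 0.46 and 0.53) were higher by over 2 spot errors. Mrpl2 was so under quantile normalization only (0.43). With no scaling Mrps25 lay within 2 (0.37). The probe of Mrpl34 was spotted 10 times on each array, with signals from 16.1 to 25.2 on WT and from 21.5 to 31.8 on the KO-labelled array. These ranges are signals before scaling, and as such they overlap between the arrays. After scaling, the averages of the spots give 0.44 ± 0.27. This error is that of a single spot, averaged over the spots and not reduced for their number. The log2 SD of these spots was 0.21 on WT and 0.17 on the KO-labelled array. The probe of Mrps35 and a further probe of Mrpl50 were also spotted 10 times, with 9 and 6 spots kept.

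**Figure D1:**
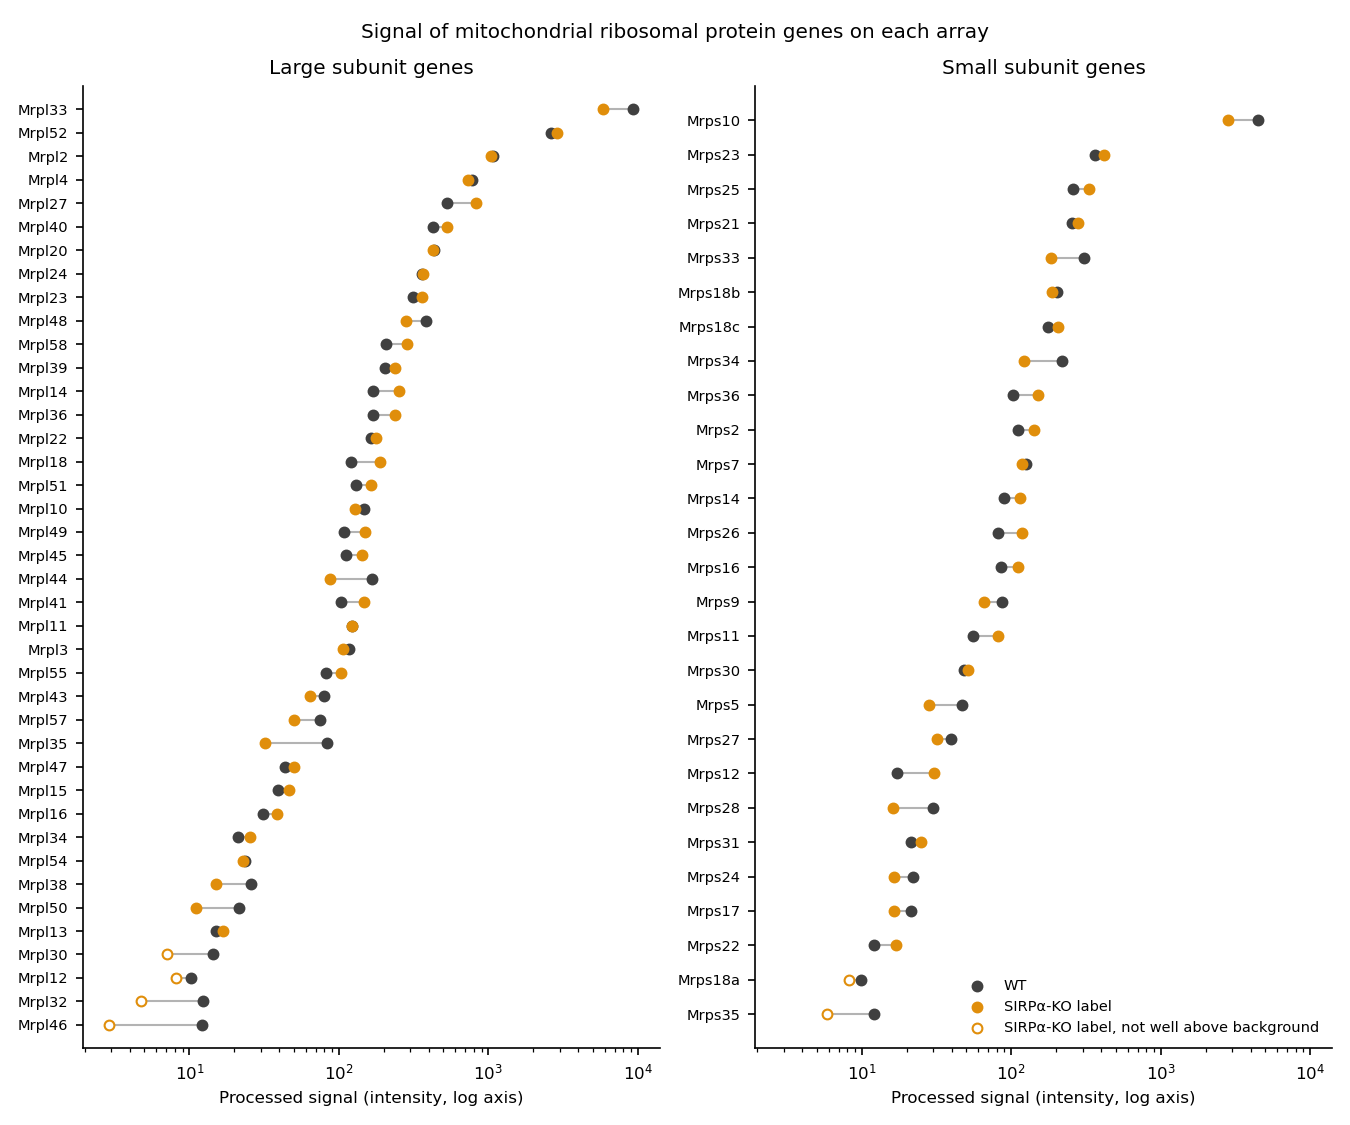
Processed signal (intensity, log axis) of the 67 measured mitochondrial ribosomal protein genes on the WT array (dark points) and the KO-labelled array (orange points), 1 array each, joined by a line. Open points were not well above background, Mrpl33 and Mrps10 are the highest in their panels, and the widest gap among filled points is that of Mrpl35 (83.5 and 32.0).

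To compare the arrays, the log2 signal of each was set relative to the 75th percentile of its spots, which lay at 100.2 on WT and 89.2 on the other. The rule of size for a higher or lower gene was a 2-fold difference between the arrays, and the value after ± is the scanner software's signal error carried to the log2 difference, which covers the spot only and not mice or pools. By this rule 0 of 67 measured members were higher, where 3.1% of all measured genes were, and 1 was lower, where 5.47% were. At the looser size of 1.5-fold, 12 members were higher, against 11.4% of all measured genes, and 6 were lower, against 13.3%. Most differences were small and lay above 0: 43 of 67 members were above 0 (64.2%), 23 below and 1 at 0, where 40.4% of all measured genes were above 0. The median difference of the members was 0.27, against -0.08 for all measured genes. With no scaling the medians were 0.10 and -0.25, 52.2% of members lay above 0, and the split at 1.5-fold turned from 12 higher and 6 lower to 3 higher and 12 lower, while the members' median stood 0.35 above that of all genes in both cases, since these settings shift all genes alike. That gap was 0.12 with normexp background correction and 0.20 with the dimmest measured probe of each gene. Normexp was run with an offset of 50 added to every signal, which by arithmetic shrinks differences, the more so the dimmer the probe. A value under a limit with normexp, here or below, is therefore a weak check for members that are not bright. At 1.5-fold, normexp left 1 member higher (Mrpl27, 0.70) and 1 lower (Mrpl35, -0.67).

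Because a gene that is dim on 1 array passes only through the other, the same values were taken for members above background on both arrays. There were 61 of them, with a median difference of 0.31, 43 above 0 and 18 below. All genes above background on both had a median of -0.08, with 43.5% above 0. Of the 61, 19 were higher by over 2 spot errors, 10 were lower by as much, and 32 lay within 2 errors, with errors from 0.20 to 0.37. Of all 14155 genes above background on both, 15.6% were higher and 19.3% lower by this rule. For scale, repeat spots of 1 probe had a median SD of 0.13 on each array, which gives 0.18 for a difference. The differences of these members had an SD of 0.49, against 0.62 for all such genes.

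The subunits were taken apart by name. The 40 measured large subunit genes had a median of 0.24, with 27 above 0, and the 27 small subunit genes had 0.27, with 16 above 0. The large subunit median was thus 0.03 below that of the small. Restricted to both arrays, the medians were 0.31 for 36 large subunit genes and 0.29 for 25 small subunit genes. The order of the subunits differed between these settings, and no test of it was possible.

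**Figure D2:**
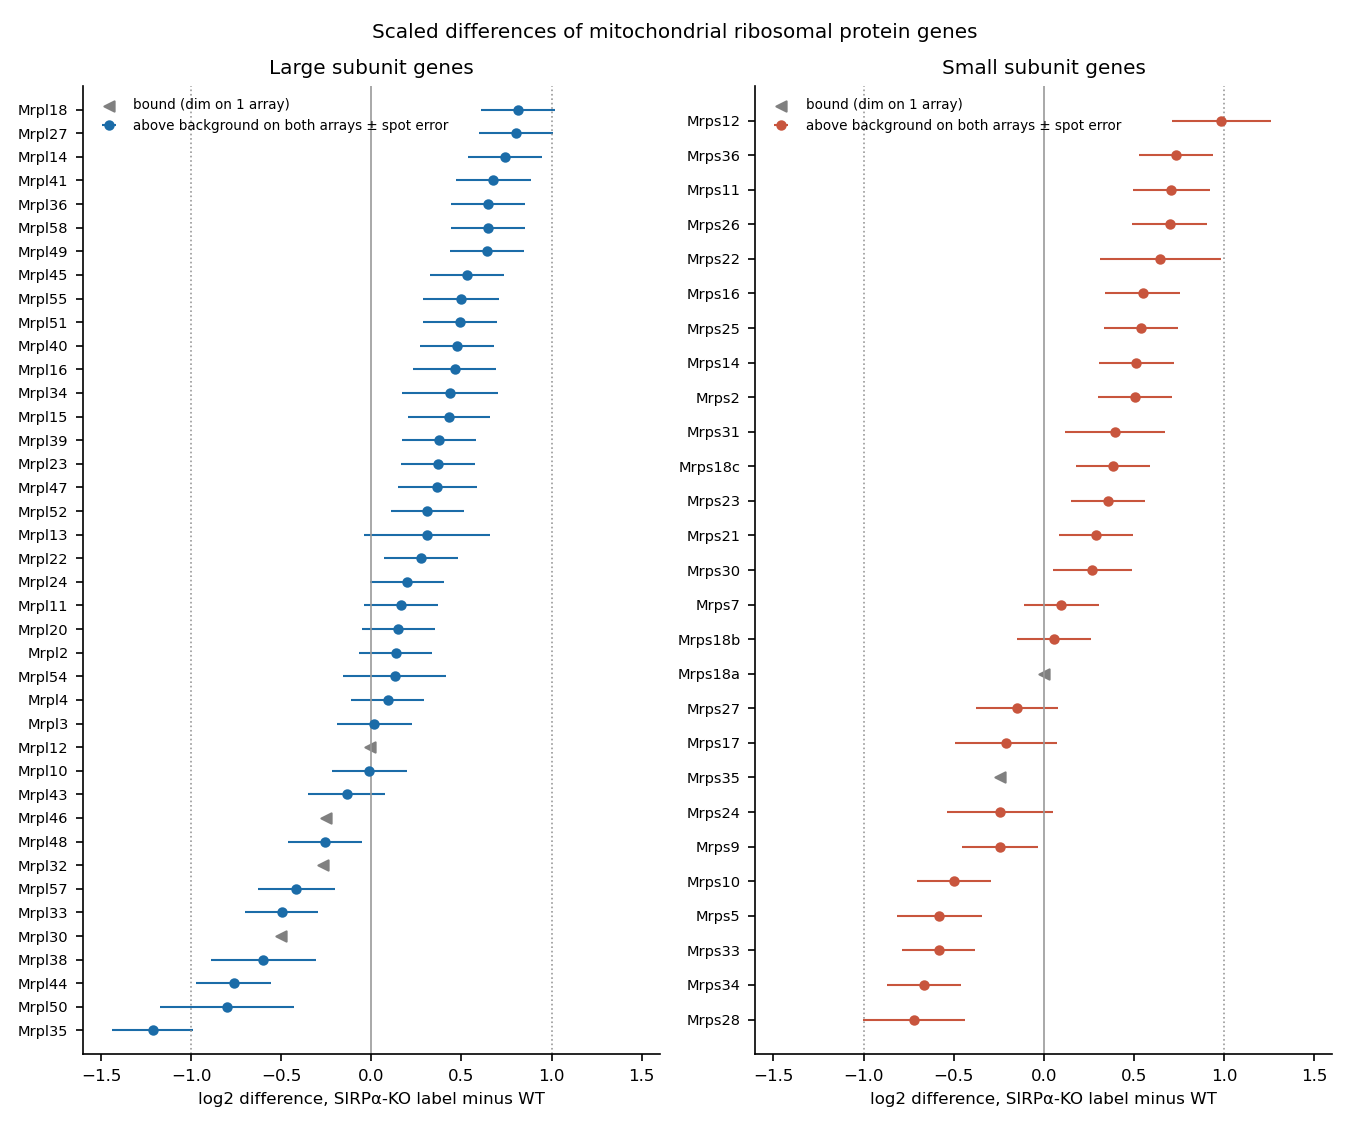
Scaled log2 difference (KO-labelled array minus WT) of each measured large subunit gene (left) and small subunit gene (right), sorted, with the spot error as bars and dotted lines at the 2-fold limits. Triangles are bounds for the 6 genes dim on the KO-labelled array, Mrpl35 alone lies past a limit at -1.21, and Mrps12 at 0.99 lies just inside the other.

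The brightness of a probe can go with its difference between arrays, so the members were set beside genes of like signal. Among genes with a mean signal from 29.3 to 216, the 6606 measured genes had a median difference of -0.04 with 46.3% above 0, and the 33 members in that range had a median of 0.38 with 24 above 0. Taken against the median of all genes in 1 of 10 signal bins, 44 of the 61 members above background on both arrays lay above the bin of their own signal, with a median of 0.44 relative to it. The 15 members with a mean signal between 87.6 and 148 had a median of 0.51, against -0.03 for all genes there. The 4 members above 1014 had a median of -0.18, against -0.33. Not every bin showed this: the 5 between 55.8 and 87.6 had -0.24 against -0.03. The 6 members in the dimmest bin were all read as bounds from the WT side, which cannot lie above 0, so no median is read from them.

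**Figure D3:**
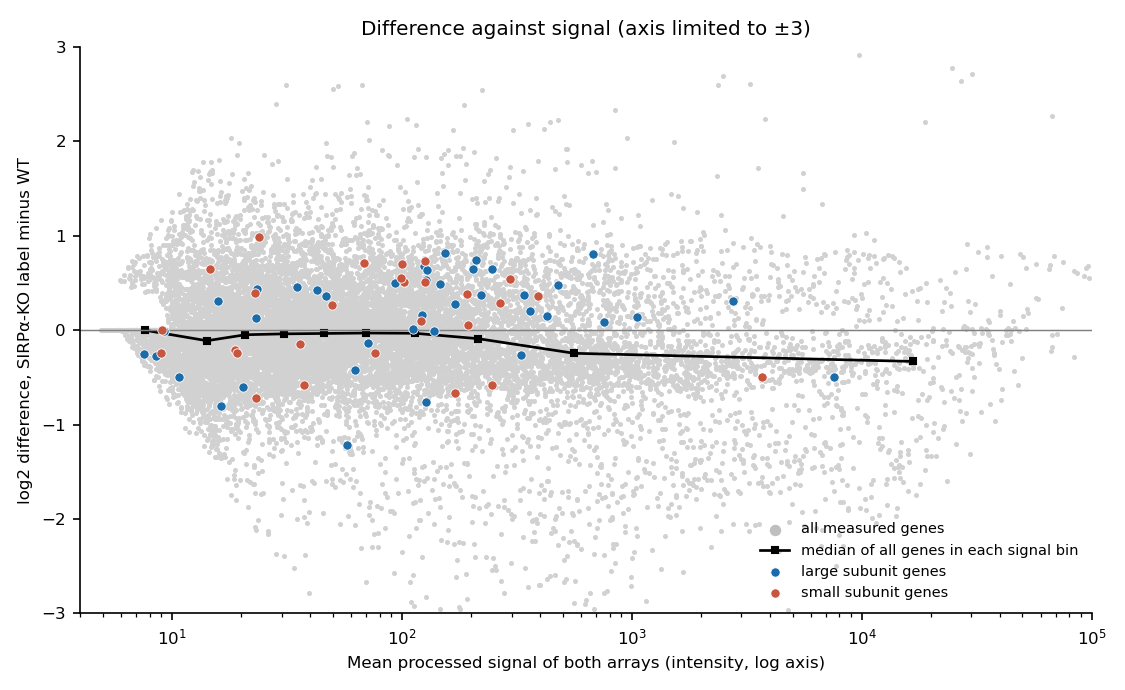
Scaled log2 difference (KO-labelled array minus WT) against the mean signal of both arrays (intensity, log axis) for all 15836 measured genes (grey, with points past 3 either way outside the axis), with large subunit genes in blue and small subunit genes in red. The black line is the median of all genes in 10 signal bins, falling to -0.33 in the brightest, and 44 of 67 members lie above the median of their bin.

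Among the large subunit proteins with bacterial counterparts, 18 of 24 measured genes lay above 0, with a median of 0.24, and 3 of the 24 were bounds. Mrpl18, a protein of the central protuberance that binds RNA at the top of the subunit, read 120.5 on WT and 188 on the KO-labelled array, a difference of 0.81 ± 0.21. Mrpl27, whose bacterial counterpart reaches towards the site of peptide bond formation, read 532 and 827 at its brightest probe, a difference of 0.80 ± 0.20. Both were higher on the KO-labelled array by more than 3 spot errors, short of the 2-fold limit. Mrpl14, a protein at the face towards the small subunit, had 169.7 and 253 (0.74 ± 0.20). Mrpl36, a short protein of the large subunit, had 169.8 and 237 (0.65 ± 0.21). These were also over 1.5-fold higher, but with normexp Mrpl18, Mrpl14 and Mrpl36 stood at 0.57, 0.51 and 0.41, under that limit. Mrpl35 was the only member past 2-fold: its probe read 83.5 on WT and 32.0 on the KO-labelled array, 2.32-fold lower, with a difference of -1.21 ± 0.22. It ranks at percentile 4.0 among the differences of all measured genes, and it had a single probe and a single spot, so no second reading of it exists on these arrays. With normexp background correction it stood at -0.67, short of the 2-fold limit. Mrpl33, at 9338 and 5888, had -0.50 ± 0.20, and lay between -0.24 and -0.27 under quantile normalization, cyclic loess and the authors' values.

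Of the large subunit proteins found only in mitochondria, 9 of 16 measured genes lay above 0, with a median of 0.22, and 1 of the 16 was a bound. Mrpl41, a protein of the large subunit, read 103 and 147 (0.68 ± 0.21). Mrpl58, a peptidyl-tRNA hydrolase built into the subunit, read 206 and 287 (0.65 ± 0.20). Mrpl49 had 108 and 149 (0.64 ± 0.21). All 3 were over 1.5-fold higher, and with normexp none was (0.47, 0.51 and 0.40). On the lower side Mrpl44, a relative of the ribonuclease III family, read 167 on WT and 87.5 on the KO-labelled array, 1.70-fold lower (-0.76 ± 0.21), and at -0.54 with normexp. Mrpl50 read 21.6 and 11.03 (-0.80 ± 0.37), and Mrpl38, a central protuberance protein, 25.7 and 15.1 (-0.60 ± 0.29). The last 2 are dim, and with normexp background correction their differences were -0.07 and -0.03. The further probe of Mrpl50, read over 6 spots, gave 0.18.

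In the small subunit, 9 of 15 measured genes with bacterial counterparts lay above 0 (median 0.10), as did 6 of 10 that are found only in mitochondria (median 0.38). Mrps12, a protein of the decoding centre, had the highest difference of all members: it read 17.2 on WT and 30.4 on the KO-labelled array, 1.98-fold higher (0.99 ± 0.28). This dim gene passed 2-fold under quantile normalization, cyclic loess and with the authors' values, and stood at 0.37 with normexp. Mrps11, a protein of the platform of the subunit, read 55.8 and 81.2 (0.71 ± 0.21). Among the genes without bacterial counterparts, Mrps26 read 82.0 and 119 (0.70 ± 0.21) and Mrps22 12.2 and 17.0 (0.65 ± 0.34). Mrps36, at 102 and 151 (0.74 ± 0.21), keeps its ribosomal name although its protein is now known as a part of the α-ketoglutarate dehydrogenase complex. These 5 were each over 1.5-fold higher, and with normexp none was: Mrps11, Mrps26, Mrps22 and Mrps36 stood at 0.33, 0.37, 0.21 and 0.49. The further probe of Mrps36 lay below 0, at -0.26.

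Lower readings in the small subunit came from both kinds of protein. Mrps34, a mitochondrion-specific protein, read 217 and 122, 1.58-fold lower (-0.66 ± 0.21). Mrps28 read 30.003 and 16.2, 1.65-fold lower (-0.72 ± 0.28). Both passed 1.5-fold, and with normexp neither did (-0.50 and -0.13). Mrps33, at 308 and 183 (-0.58 ± 0.21), and Mrps5, a protein near the path of the mRNA, at 47.1 and 28.1 (-0.58 ± 0.24), lay at that limit without passing it. Mrps10, a protein of the head of the subunit, read 4499 and 2837 (-0.50 ± 0.20), and lay between -0.21 and -0.28 under quantile normalization, cyclic loess and the authors' values. Mrps30 and Mrps18a carry a small subunit name but sit in the large subunit in structures. Mrps30 read 48.0 and 51.4 (0.27 ± 0.22), and counting both under the large subunit left the medians at 0.23 for the large and 0.29 for the small subunit. The measured members of either subunit that are not described on their own lay between Mrpl57 (74.97 and 49.95, -0.42 ± 0.21) and Mrps16 (85.7 and 112, 0.55 ± 0.21).

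Next, 3 parts of the large subunit were looked at by structure. All 5 measured genes of the polypeptide exit, where the new chain leaves, lay above 0, with a median of 0.37. They were Mrpl45, which anchors the ribosome at the inner membrane (112 and 144, 0.53 ± 0.21), Mrpl23 (315 and 362, 0.37 ± 0.20), Mrpl47 (43.6 and 50.04, 0.37 ± 0.22), Mrpl22 (164 and 177, 0.28 ± 0.21) and Mrpl24 (357 and 365, 0.20 ± 0.20). Only Mrpl45 exceeded 2 spot errors, and the sixth gene of the list, Mrpl17, was not above background on either array. This too depends on the scaling. Mrpl45 stood at 0.36 with no scaling, within 2 errors. Mrpl23 stood past 2 errors under quantile normalization, cyclic loess and the authors' values (0.52, 0.46 and 0.52). The stalk, which takes up translation factors, had a median of 0.06 over 4 measured genes. Of these, Mrpl10 read 146 and 129, Mrpl11 122 and 122, and Mrpl54 23.6 and 23.0, with differences of -0.01 ± 0.21, 0.16 ± 0.21 and 0.13 ± 0.28, while Mrpl12 was dim on the KO-labelled array (10.3 and 8.13). None of the 3 with a value on both arrays differed beyond its error at its brightest probe. The further probe of Mrpl10 did, at -0.37 ± 0.27. The central protuberance, which bridges to the head of the small subunit, held both high and low members: 5 of 8 lay above 0 with a median of 0.49. Beside Mrpl18, Mrpl27, Mrpl58 and Mrpl38 above, it holds Mrpl55 (82.4 and 104, 0.50 ± 0.21), Mrpl40 (427 and 528, 0.47 ± 0.20), Mrpl48 (379.9 and 283, -0.26 ± 0.20) and the dim Mrpl46.

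Members that were dim give bounds or no value. On the KO-labelled array Mrpl12, Mrpl30, Mrpl32, Mrpl46, Mrps18a and Mrps35 were not well above background, though each was on WT. The folds given here set the dim side to the lowest signal called above background there, 9.09, and leave out the spot error. So read, Mrpl30 was at least 1.41-fold lower (14.4 on WT and 7.04 measured on the other) and Mrpl32 at least 1.21-fold lower (12.3 and 4.72). Mrpl46 was at least 1.19-fold lower and Mrps35, with 12.1 and 5.84 over 9 spots, at least 1.18-fold lower, while Mrpl12 and Mrps18a (9.89 and 8.19) allowed no fold of any size. With the spot error the log2 values were -0.50 ± 0.49 for Mrpl30, -0.27 ± 0.69 for Mrpl32, -0.25 ± 1.08 for Mrpl46 and -0.24 ± 0.59 for Mrps35. All but Mrpl30 lay within their error, and Mrpl30 barely passed it, so these are not strict minimum folds. Mrpl28, at 9.25 on that array, was not called above background, so 9.09 is no strict limit either. These bounds are too small to place the genes on either side of the 2-fold limit. A further 11 members were not well above background on either array: Mrpl1, Mrpl9, Mrpl17, Mrpl19, Mrpl21, Mrpl28, Mrpl37, Mrpl42, Mrpl53, Mrps6 and Mrps15.

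Some members were read by more than 1 probe, which gives a check within each array. A further probe was above background for 16 members, and its difference had the same sign as that of the brightest probe in 10. Over the 13 members whose further probe was above background on both arrays, 9 agreed in sign (69.2%) and the differences correlated with Pearson's r = 0.25, a description over probes that share the same RNA. Over all genes with such pairs, 2614 in number, 54.2% agreed in sign and r was 0.12. Mrpl40 read alike at both probes (0.47 and 0.47), as did Mrpl49 (0.64 and 0.55). Mrpl41 (0.68 and 0.93) and Mrps25 (0.54 and 0.94) were higher at both, the latter by more at a dim probe with 11.3 on WT and 19.3 on the KO-labelled array. For several of the highest and lowest members the probes differed. The further probe of Mrpl27 read 164 and 151, a difference of 0.05 ± 0.21 where the brightest gave 0.80. That of Mrps36 read 92.3 and 68.5, or -0.26 ± 0.21 where the brightest gave 0.74. That of Mrpl50 read 11.95 and 12.1 over 6 spots, or 0.18 ± 0.38, where the brightest, with 1 spot, gave -0.80. Mrps26 stayed above 0 (0.70 and 0.25), as did Mrps23 (0.36 and 0.12) and Mrps7 (0.10 and 0.03), while Mrps2 (0.51 and -0.29) and Mrpl4 (0.09 and -0.24) did not, and Mrpl10 was below 0 at both (-0.01 and -0.37). For Mrpl39, Mrpl43 and Mrps18b the further probe was dim on the KO-labelled array and gives bounds of at most -0.89, -0.57 and -1.16. The probes of a gene can read different transcripts or exons, and which of them each reads was not tested.

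**Figure D4:**
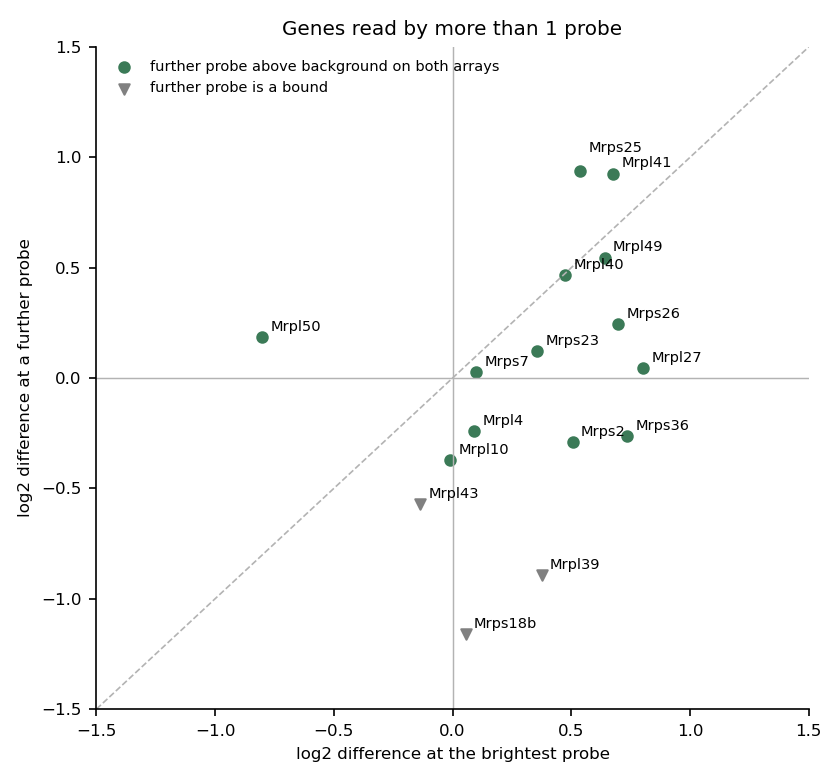
Scaled log2 difference (KO-labelled array minus WT) at the brightest probe and at a further probe of the 16 members read by more than 1, with the dashed line where both are equal. Green points are above background on both arrays, triangles are upper bounds, and Mrpl40 lies on the line while Mrpl27, Mrps36 and Mrpl50 lie farthest from it among the green points together with Mrps2.

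The members differed in their promoter letters too, and the arrays were read by them as a description. The 16 measured members with the GABP letters had a median difference of 0.41, with 12 above 0, and the 43 measured members with an entry but without the letters had 0.20, with 27 above 0. For NRF-1 the order was the other way, with 0.05 over 5 members with the letters and 0.33 over 54 without. No test of either gap was possible with 1 array a group. The YY1 letters stood before Mrpl36 and Mrps11, at 0.65 and 0.71. The 41 bases between the starts of Mrps11 and Mrpl46 hold no match, so the match before Mrps11 reaches past the annotated start of Mrpl46.

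Other genes of mitochondrial translation, were taken from lists of related genes. The 5 proteins of the mitochondrial ribosome that carry other names all lay below 0 at their brightest probe, with a median of -0.55, and did so under each scaling tried. Set against genes of their own signal bin, their median was -0.23, with 0 of 5 above the bin. Aurkaip1 and Gadd45gip1 lie in the brightest bin, where all genes had a median of -0.33. Dap3, a GTP-binding protein of the small subunit also known from work on cell death, read 751 on WT and 157 on the KO-labelled array, 4.26-fold lower (-2.09 ± 0.20), but its further probe gave 0.38. Aurkaip1 read 8894 and 5354 (-0.56 ± 0.20), Gadd45gip1 13806 and 9243 (-0.41 ± 0.20), Chchd1 19.0 and 11.6 (-0.55 ± 0.36) and Ptcd3 18.6 and 13.1 (-0.34 ± 0.35). Of these 5 only Dap3 passed 2-fold, and the mean of its probes, -0.86, does not. Of the other related genes, 9 translation factors had a median of -0.17, 18 synthetases that load mitochondrial tRNAs and their helpers 0.10, 17 genes of ribosome assembly and ribosomal RNA -0.19, and 13 of mitochondrial transcription and RNA -0.15. In the same order, 7, 15, 17 and 9 of these genes were above background on both arrays, and the rest are bounds. The last median is itself the bound of Polg2, with 11.3 on WT and 7.76, dim, on the KO-labelled array.

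The related lists together hold 65 measured genes, of which 2 passed 2-fold upwards and 5 downwards, where 3.1% and 5.47% of all measured genes did. In these lists 27 genes were above 0 (41.5%), with a median of -0.14, near the 40.4% and -0.08 of all measured genes. Of the 65, 55 were above background on both arrays. The others are bounds, all but Yars2 from the WT side, which cannot lie above 0, and all measured genes include bounds too. Tsfm, the exchange factor of the elongation factor that brings tRNAs, read 16898 and 6575, 2.29-fold lower (-1.19 ± 0.20). Dhx30, an RNA helicase of ribosome assembly, read 1294 and 348, 3.31-fold lower (-1.73 ± 0.20), while its further probe gave -0.21. Pnpt1, an exoribonuclease of mitochondria, read 1893 and 818, 2.06-fold lower (-1.04 ± 0.20). Its dimmest measured probe gave -0.71 and the mean of its probes -0.87, both short of 2-fold. Polg, the mitochondrial DNA polymerase, was dim on the KO-labelled array (25.97 on WT and 4.72). Its bound was at least 2.54-fold lower before the spot error (-1.35 ± 0.66). Tefm, the elongation factor of mitochondrial transcription, went the other way, with 24.6 and 57.5, 2.63-fold higher (1.40 ± 0.23), as did Fars2, which loads phenylalanine, with 55.9 and 106, 2.12-fold higher (1.09 ± 0.21). Several of these calls depend on the setting: Tsfm and Pnpt1 stood at -0.93 and -0.72 with quantile normalization, Tefm, Fars2 and Polg at 0.70, 0.59 and -0.36 with normexp, and Fars2 at 0.92 with no scaling. Tfam, which packs and transcribes mitochondrial DNA, read 55.2 and 38.9 (-0.34 ± 0.22), and Polrmt, the mitochondrial RNA polymerase, 40.5 and 26.9 (-0.42 ± 0.25), both within 2 errors. Of the 3 measured genes on the list for insertion of the products, Oxa1l, the insertase, read 267 and 369 (0.63 ± 0.20, with -0.59 at its further probe), Mdh2, a citric acid cycle enzyme that the list also holds, lay at 0.34, and Letm1 was dim on the KO-labelled array.

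For comparison, 76 measured genes of cytosolic ribosomal proteins had a median of 0.37 with 60 above 0 (78.9%), and 77 measured nuclear genes of respiratory chain and ATP synthase subunits had a median of 0.32 with 59 above 0 (76.6%). Both medians stand beside the members' 0.27. Under quantile normalization the medians were 0.59, 0.55 and 0.36. A median above that of all genes was thus not seen for mitochondrial ribosomal proteins alone on these arrays. Most cytosolic ribosomal genes are bright, with a median signal of 1943 on WT against 103 for the members and 478 for the respiratory chain subunits. Set against genes of their own signal bin, the medians were 0.63 for the cytosolic ribosome, 0.57 for the respiratory chain and 0.40 for the members. The part of lymphocytes and plasma cells in these values was not tested.

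**Figure D5:**
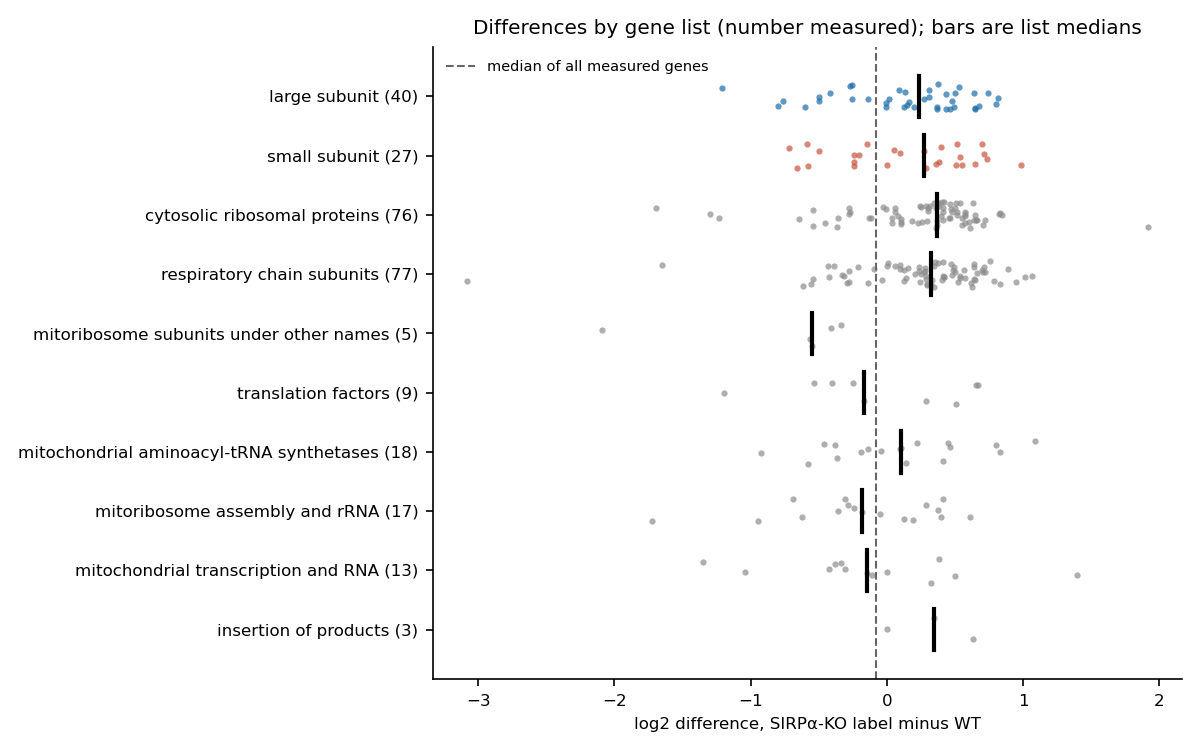
Scaled log2 difference (KO-labelled array minus WT) of each measured gene (points, spread vertically at random) in the subunits, 2 lists for comparison and 6 lists of related genes, with the number measured in brackets. Black bars are list medians, and the dashed line is the median of all measured genes at -0.08, with the subunits at 0.24 and 0.27 and the 5 ribosome proteins under other names at -0.55.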

How the data were processed

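The deposited scanner tables give spot intensity (linear), read from both arrays in 1 scan by Agilent Feature Extraction 11.0.1.1 on mouse design 26655 (genome build field mm9), per the file headers. The authors also deposited a log2 table, for which no source used here gives the normalization, and it served as an alternative. The processed signal, background-subtracted and detrended by that software per the file headers, was taken as log2 minus the 75th percentile of each array. Control spots and 321 of 43020 other spots with an outlier mark on either array were left out, and 0 spots were saturated. Of the probes, 71.5% on WT and 65.4% on the KO-labelled array were well above background. Spots of a probe were averaged, as were their errors, which were not reduced for the number of spots. Of 39386 probes, 27206 were named through RefSeq accessions (assembly GRCm38.p6, used for names and promoters). A gene was read by its brightest probe. Where that probe was dim on 1 array, that side was set to the lowest signal called above background (7.92 on WT, 9.09 on the other) or its own, if higher. The fold is then a bound, which leaves out the spot error.

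The members and lists were chosen with earlier results of these data known. Named members were those past 2-fold, the 5 highest and 5 lowest of each subunit, the 3 brightest of each, those with a further measured probe, the dim ones and the small role lists; of related genes, up to 2 each way past 2-fold per list, with Sirpa, Tfam and Polrmt. Other members and markers named are further context, named after their values were seen. The gene steps were tested on data simulated from the WT array, with spot error added and some brighter genes changed by a known size past 2-fold. Bounds, smaller differences, changes in dim genes and disagreement between probes were not part of that test. Python 3.11.15 (numpy 2.4.6, pandas 2.3.3, matplotlib 3.10.9) and limma 3.58.1 in R 4.3.3 were used. Alternatives covered the scaling, background correction, filter, probe choice, marked spots, fold limit and subunit assignment.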

Additional observations from a re-analysis of the deposited data

How the results depend on the processing

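The median of the large subunit genes stayed above 0 under all 13 alternatives, from 0.07 with no scaling to 0.36 with quantile normalization. That of the small subunit genes ranged from 0.10 with no scaling to 0.29, except with the dimmest measured probe of each gene, where it was 0 and the large subunit median lay 0.17 above it. Members at least 2-fold higher numbered 2 with quantile normalization and with the authors' log2 values (Mrps12 and Mrpl27), 1 with cyclic loess and 12 at a limit of 1.5-fold, instead of 0. Members at least 2-fold lower numbered 0 with normexp, 0 at a limit of 3-fold, 3 with no filter on dim probes, 2 with the dimmest probe and 6 at a limit of 1.5-fold, instead of 1. Normexp on the mean signal could not be run, because the scanner tables used here hold none, so it was run on the median signal with an offset of 50, and this and the limit to members whose probes agree in sign were chosen after seeing the data. Normexp, through this offset, pulled dim genes towards 0, and it moved 17 of 47 named members by more than their error (0.3 for bounds). With no scaling 5 of the 47 changed sign. Apart from the offset, the cause of these shifts was not tested. Low signal over background limits the 11 unmeasured and 6 bounded members. No paired analysis was possible because each genotype had 1 array.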
